A study of Mus musculus with 24 samples.

Results

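The 8 myeloid C-type lectin receptor genes described here were *Clec4e*, *Clec4d*, *Clec4n*, *Clec7a*, *Clec5a*, *Clec12a*, *Clec4a1* and *Clec4a3*, taken by symbol from a deposited table of 56691 genes for RAW264.7 cells and another for bone marrow-derived macrophages (BMDMs). RAW264.7 is a mouse macrophage-like leukaemia line, and BMDMs were grown for 6 days with L929 cell supernatant from the marrow of 8-week-old male C57BL/6 mice. Each cell type had 4 groups of 3 RNA-seq libraries: wild type with PBS, *Olfml3* knockout with PBS, wild type with lipopolysaccharide (LPS, a Gram-negative outer membrane component) and *Olfml3* knockout with LPS, LPS being given at 100 ng/mL for 4 h. The RAW264.7 knockout came from single-cell clones made with CRISPR-Cas9, and the BMDM knockout came from mice that lack *Olfml3* in every tissue. Groups follow the sample titles, which the deposited genotype tag contradicts in part of the samples. The labels do not say whether replicates came from separate cultures or mice, so the p-values measure only the spread between these libraries.

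C-type lectin receptors are surface proteins of myeloid cells that bind sugars, lipids and other ligands on fungi, mycobacteria, viruses and dying cells. The activating ones signal through an immunoreceptor tyrosine-based activation motif, carried either by the receptor's own tail or by a partner adaptor such as Fcer1g (the Fc receptor gamma chain) or Tyrobp (DAP12), which recruits the kinase Syk and then the complex of Card9, Bcl10 and Malt1. Inhibitory members instead recruit phosphatases such as Ptpn6 and Ptpn11, and in macrophages the balance of both kinds can contribute to how strongly a microbe is answered.

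Levels are given as FPKM, fragments scaled to exon length and library total, which is a level per length and can be compared between genes of 1 library. Differences are log2 fold changes of FPKM + 0.1, with the standard error (SE) from a limma model of all 12 libraries of a cell type. A receptor was called changed at a Benjamini-Hochberg adjusted p under 0.05 over all genes tested and a fold change of at least 1.5. The 2 tables were normalised separately, so values of the 2 cell types stand side by side and were not tested against each other. These are bulk samples, in which fewer cells of a type and less RNA per cell cannot be told apart.

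The RAW264.7 libraries held between 11638273 and 16478616 counts each, and the BMDM libraries between 17121240 and 22873094. Summed over all genes, FPKM came to 357349 to 367540 in wild-type RAW264.7 libraries and 295256 to 356156 in those titled knockout. *Olfml3* itself was at 0 to 0.03 FPKM in the BMDM knockout libraries against 0.24 to 0.65 in wild type. In RAW264.7 it was higher in the libraries titled knockout (0.65 to 1.19 FPKM with PBS and 18.3 to 18.9 with LPS) than in wild type (0.13 to 0.29). That goes against the titles, and the libraries titled knockout are called labelled knockout throughout. Replicate 1 of the labelled knockout with PBS stood apart, with a mean correlation of 0.964 with its own group and 0.973 with wild type. The receptor counts that use it, and some single receptor values, are given with and without it. Values of the signalling genes and other C-type lectins are given with it only. Macrophage markers were over 1 FPKM for 7 of 7 genes in every BMDM group and for 5 or 6 of 7 in RAW264.7, where *Mertk* was at 0. Their summed level was 869 to 891 FPKM in RAW264.7 wild type with PBS, 795 to 878 in the labelled knockout with PBS, 597 to 611 in wild type with LPS and 429 to 437 in the labelled knockout with LPS. In BMDMs the sums were 2640 to 2725, 2350 to 2393, 1946 to 1979 and 1740 to 1774 FPKM for the same order of groups. Neutrophil markers, whose cells also carry several of these receptors, summed to at most 0.73 FPKM in RAW264.7 and to 5.33 to 8.61 in BMDMs, with *Ly6g* at 0 in all groups. Of 5 dendritic cell markers, *Flt3* and *Ccr7* were at 0 in the PBS groups of RAW264.7, while the sum, carried by *Siglech*, was 1.08 to 1.36 FPKM in wild type and 8.66 to 10.1 in the labelled knockout with PBS. With LPS it was 0.68 to 0.78 and 2.75 to 2.81 FPKM, and the BMDM libraries held 0.23 to 1.66. Lymphocyte markers summed to at most 0.28 FPKM. The part of these marker differences in the receptor results was not tested.

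All 8 genes lie on chromosome 6. *Clec4a1*, *Clec4a3*, *Clec4n*, *Clec4d* and *Clec4e* fall within 368 kb that hold 13 listed genes, and *Clec4e* ends the row on the minus strand, 6.52 kb from *Clec4d* on the plus strand. *Clec12a* and *Clec7a* bound a second stretch of 130 kb with 7 listed genes, and *Clec5a* stands alone (40551828 to 40562755, minus strand, in the coordinates of the tables). The submitters' notes name mm10, but only 2.76% of the tables' gene positions match GRCm38, so the build of these coordinates is not established. None of the 8 genes overlaps another listed gene, and none shared a 75-base stretch of transcript with another gene of GENCODE M21.

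Promoter sequence was read from RefSeq for GRCm38.p6, as the 250 bases before each listed start, for 7 of the 8 genes and 9 starts, *Clec4n* having no entry. Of these, 4 are shown: the neighbours *Clec4e* and *Clec4d*, which are both lower in the labelled knockout of RAW264.7 but respond to LPS on very different scales, *Clec7a*, whose LPS response has opposite signs in the 2 cell types, and *Clec5a*, which rose with LPS in BMDMs. Capitals mark matches, on either strand, to the letters GAGGAA (PU.1, the myeloid factor encoded by *Spi1*) or TTGCNNAA (C/EBP). They are *Clec4e* at chr6:123289872-123290121 (minus strand), *Clec4d* at chr6:123261857-123262106 (plus), *Clec7a* at chr6:129472780-129473029 (minus) and *Clec5a* at chr6:40585806-40586055 (minus).
Clec4e: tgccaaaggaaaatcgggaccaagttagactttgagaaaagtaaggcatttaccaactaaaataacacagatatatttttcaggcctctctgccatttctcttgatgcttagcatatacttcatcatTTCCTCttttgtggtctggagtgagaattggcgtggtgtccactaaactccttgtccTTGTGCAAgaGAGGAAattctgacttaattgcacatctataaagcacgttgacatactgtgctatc
Clec4d: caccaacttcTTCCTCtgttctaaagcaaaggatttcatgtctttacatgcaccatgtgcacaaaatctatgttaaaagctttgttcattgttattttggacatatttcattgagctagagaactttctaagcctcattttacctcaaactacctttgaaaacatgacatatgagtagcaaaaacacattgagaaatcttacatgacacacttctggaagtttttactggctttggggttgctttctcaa
Clec7a: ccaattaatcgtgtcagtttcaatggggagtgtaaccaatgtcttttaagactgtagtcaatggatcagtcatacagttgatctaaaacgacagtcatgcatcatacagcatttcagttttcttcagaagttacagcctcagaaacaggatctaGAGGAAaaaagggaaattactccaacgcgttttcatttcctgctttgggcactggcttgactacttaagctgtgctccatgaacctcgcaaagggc
Clec5a: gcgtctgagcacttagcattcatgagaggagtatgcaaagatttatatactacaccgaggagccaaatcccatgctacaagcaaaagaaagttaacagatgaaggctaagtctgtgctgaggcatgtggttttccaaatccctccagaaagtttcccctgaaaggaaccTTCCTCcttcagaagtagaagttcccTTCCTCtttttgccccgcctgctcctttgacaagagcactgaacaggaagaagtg

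GAGGAA was found in 8 of the 9 receptor promoters and in 23.3% of all 32851 mouse promoters of this length. The 9 belong to 7 genes and are not independent. The 2 *Clec7a* windows overlap and hold the same match, which is counted in both, and the 2 *Clec4a3* windows also overlap. In *Clec4e* it lies at -56 to -51 and at -123 to -118 from the start, in *Clec5a* at -55 to -50 and -81 to -76, in *Clec7a* at -96 to -91, and in *Clec4d* far out at -240 to -235. TTGCNNAA was in 2 of the 9 (9.56% of all), *Clec4e* at -66 to -59, next to its nearer GAGGAA, and *Clec12a* at -140 to -133. TGANTCA (AP-1) was in 1, *Clec12a* (6.75% of all), while the IRF motif (2.98% of all) and the NF-kB motif (3.9% of all) were in none. These matches are a description of letters and not of bound sites.

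With PBS, 4 of the 8 receptors were called between labelled knockout and wild type in RAW264.7 (limma), 1 higher and 3 lower, where 8.55% of 26740 genes were called, 4.79% higher and 3.77% lower. *Clec4d* and *Clec4e*, which encode partner receptors for mycobacterial glycolipid, and *Clec4a3* fell, and *Clec7a*, the beta-glucan receptor, rose. With LPS, 3 were called and all were lower, *Clec4d*, *Clec4e* and *Clec5a*, where 17.3% of genes were called and 7.6% were lower. The median log2 fold change of the 8 was -0.94 with PBS and -0.54 with LPS, beside 0.02 and 0 over all genes tested. The PBS median falls between *Clec4n* (7 counts in wild type, 0 in the labelled knockout) and *Clec4a1* (10 and 3). With LPS the median falls between *Clec4n* (16 and 6) and *Clec4a3* (57 and 36). Both medians thus rest on genes with few counts. Without replicate 1 of the labelled knockout with PBS the counts stayed at 4 and 3, while the share of all genes called went to 20.8% with PBS and 19.2% with LPS.

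LPS against PBS called 5 of the 8 receptors in wild-type RAW264.7, 4 higher and 1 lower, where 18.3% of genes were called, 5.8% higher and 12.5% lower. *Clec4e*, *Clec4a1*, *Clec7a* and *Clec4d* rose and *Clec4a3* fell. In the labelled knockout 2 were called, *Clec4e* and *Clec4a1*, both higher, where 22.1% of genes were called and 7.45% were higher. That count was 3 without replicate 1 of the labelled knockout with PBS, *Clec4d* joining them (21.8% of genes called). It was 4, with *Clec4d* and *Clec7a*, after median-ratio scaling (20.5% of genes called, 10.2% higher) and with the count models edgeR (filtered, 37.9%) and DESeq2 (19.8%). The members' median log2 fold change was 0.62 in wild type and 0.39 in the labelled knockout, beside -0.05 and -0.07 over all genes tested. Over the 12518 genes at 1 FPKM or more in some group the median was -0.20 and -0.22. The wild-type median of the members falls between *Clec4d* and the nearly absent *Clec4n* (7 counts with PBS and 16 with LPS).

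In BMDMs LPS called 6 of the 8 in wild type, 3 higher and 3 lower, where 40.4% of 26973 genes were called, 7.94% higher and 32.5% lower. The knockout gave 6 as well, 3 and 3, where 38.9% were called, 8.02% higher and 30.9% lower. *Clec4e*, *Clec4d* and *Clec5a* rose and *Clec7a*, *Clec4n* and *Clec4a3* fell in both genotypes. Most genes at 1 FPKM or more were lower with LPS in this table, with a median log2 fold change of -0.76 in wild type and -0.65 in knockout, which median-ratio scaling brought to -0.16 in each. On that scale 32.1% of genes were called in wild type, 12.5% higher and 19.5% lower, and 30.8% in knockout, 11.6% higher and 19.1% lower, and the receptors split into 4 higher and 1 lower in wild type (*Clec4a1* joining the rises and *Clec7a* alone lower) and 5 higher and 1 lower in knockout. The falls of *Clec4n* and *Clec4a3* therefore depend on the scaling, and the rises of *Clec4e*, *Clec4d* and *Clec5a* do not under the scalings tried.

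Between knockout and wild-type BMDMs no receptor was called by limma with PBS, where 1.82% of genes were called, or with LPS, where 4.76% were. At an unadjusted p under 0.05 there were 7 with PBS, beside 14.7% of all genes, and 5 with LPS, beside 27.4%. At an adjusted p under 0.05 without the fold limit there were 5, beside 4.14%, and 3, beside 17.8%. With LPS, filtered edgeR and DESeq2 each called 1, *Clec7a*, where they called 9.1% and 4.34% of genes. Both called 0 with PBS, for which their share over all genes is not given here. The members' median log2 fold change was -0.14 with PBS and 0.06 with LPS, beside 0.01 and 0.04 over all genes tested. Over the 11579 genes at 1 FPKM or more in some group the median was 0.03 and 0.14.

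**Figure D1:**
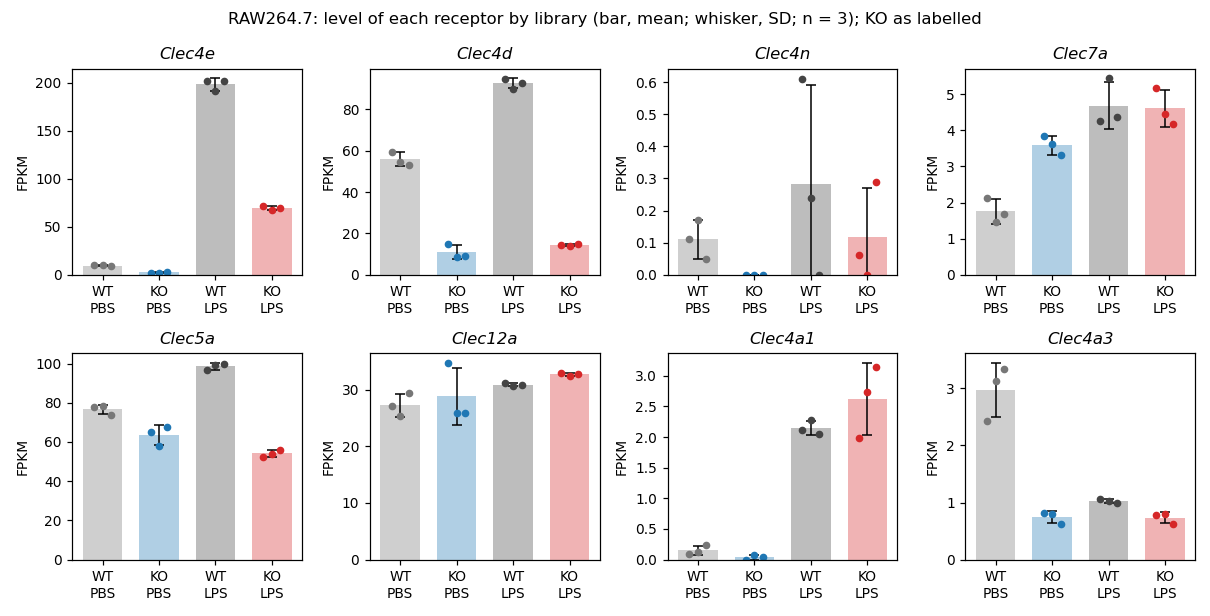
Level of each receptor in the 12 RAW264.7 libraries, in FPKM from 0 on a scale of its own per gene. Points are libraries, bars group means and whiskers SD (n = 3), and KO is the labelled knockout. *Clec4d* reached at most 14.9 FPKM in the 6 labelled knockout libraries and at least 53.1 in the 6 wild-type libraries.

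**Figure D2:**
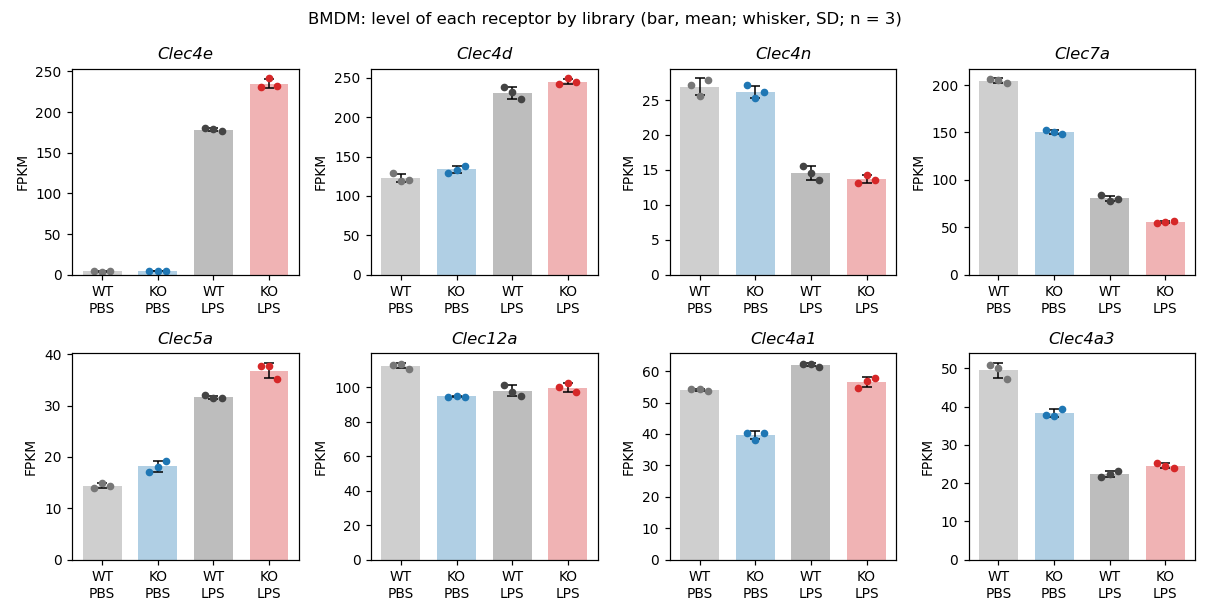
Level of each receptor in the 12 BMDM libraries, in FPKM from 0 on a scale of its own per gene, with points, bars and whiskers as for RAW264.7. *Clec4e* went from 3.62 to 4.97 FPKM with PBS to 177 to 241 with LPS, while *Clec7a* fell from 149 to 207 to between 54.9 and 83.6.

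*Clec4e* (Mincle) binds the mycobacterial cord factor and a nuclear protein of dying cells and signals through Fcer1g. In wild-type RAW264.7 it was at 10.3, 9.66 and 8.98 FPKM with PBS and 202, 191 and 202 with LPS. The labelled knockout had 2.35, 2.26 and 2.93 FPKM with PBS and 71.4, 67.2 and 70.0 with LPS. All 4 groups stood apart, so LPS lifted it steeply in both genotypes while the labelled knockout stayed lower at each condition. The log2 fold change with LPS was 4.35 (SE 0.10, adjusted p = 3.29e-09, limma) in wild type, a 20.4-fold rise, and 4.74 (SE 0.10, adjusted p = 1.36e-09) in the labelled knockout, a 26.8-fold rise. Labelled knockout against wild type gave -1.91 (SE 0.10, adjusted p = 3.67e-06) with PBS and -1.51 (SE 0.10, adjusted p = 1.45e-05) with LPS, or 3.75-fold and 2.85-fold lower. Whether LPS acted differently in the 2 genotypes did not pass the test, at a difference of 0.39 (95% interval 0.07 to 0.72, adjusted p = 0.339).

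With PBS the BMDM libraries held low *Clec4e* too, with 4.37, 3.62 and 4.05 FPKM in wild type and 4.71, 4.68 and 4.97 in knockout. With LPS it reached 180, 179 and 177 FPKM in wild type and 231, 241 and 233 in knockout. This was the steepest LPS response of the 8 receptors, 43.6-fold in wild type (log2 5.44, SE 0.07, adjusted p = 9.3e-12, limma) and 48.1-fold in knockout (log2 5.59, SE 0.07, adjusted p = 7.23e-12). All knockout libraries were above all wild-type libraries with LPS, by 0.40 (SE 0.07, adjusted p = 0.0026) on the log2 scale, which is under the 1.5-fold limit, and 0.26 after median-ratio scaling. With PBS the difference was 0.25 (SE 0.07, adjusted p = 0.0732).

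*Clec4d* (MCL, also called Dectin-3) pairs with Mincle and Fcer1g and also binds cord factor. In wild-type RAW264.7 it was already high with PBS, at 59.5, 54.7 and 53.1 FPKM, and reached 94.7, 89.9 and 92.9 with LPS. In the labelled knockout it was at 14.9, 8.66 and 9.09 FPKM with PBS and 14.4, 13.9 and 14.7 with LPS. No labelled knockout library came near a wild-type one, which made it the receptor with the largest genotype difference in RAW264.7, 5.24-fold lower with PBS (log2 -2.39, SE 0.18, adjusted p = 2.8e-05, limma) and 6.43-fold lower with LPS (log2 -2.68, SE 0.18, adjusted p = 1.12e-05). The 14.9 FPKM belongs to the replicate that stood apart, and without it the PBS difference was -2.64. LPS raised *Clec4d* 1.66-fold in wild type (log2 0.73, SE 0.18, adjusted p = 0.0121). In the labelled knockout the LPS and PBS libraries overlapped (log2 0.44, SE 0.18, adjusted p = 0.101), but without that replicate the value was 0.68 (adjusted p = 5.17e-05). The difference between these responses was -0.29 (95% interval -0.85 to 0.26, adjusted p = 0.772).

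In BMDMs *Clec4d* was at 129, 119 and 120 FPKM in wild type and 129, 133 and 139 in knockout with PBS. LPS libraries held 238, 232 and 223 FPKM in wild type and 242, 249 and 244 in knockout. It rose in both genotypes, 1.88-fold (log2 0.91, SE 0.05, adjusted p = 1.25e-07, limma) and 1.84-fold (log2 0.88, SE 0.05, adjusted p = 2e-07). Knockout was not called against wild type, with 0.12 (95% interval 0.01 to 0.24) with PBS and 0.09 (-0.03 to 0.20) with LPS, the latter turning to -0.05 after median-ratio scaling. The wide genotype gap of *Clec4d* in RAW264.7 was thus not seen in BMDMs, although the 2 tables could not be tested against each other.

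*Clec4n* (Dectin-2), the Fcer1g-coupled receptor for fungal alpha-mannan, was nearly absent from RAW264.7. Its 3 libraries per group summed to 7 counts in wild type and 0 in the labelled knockout with PBS, and to 16 and 6 with LPS, and no fold is given. In BMDMs with PBS it was at 27.2, 25.6 and 27.9 FPKM in wild type and 27.1, 25.3 and 26.1 in knockout, with the genotypes overlapping. With LPS the values were 15.5, 14.5 and 13.5 FPKM in wild type and 13.2, 14.3 and 13.5 in knockout, below every PBS library. The LPS difference was -0.89 (SE 0.06, adjusted p = 8.21e-07, limma) in wild type and -0.93 (SE 0.06, adjusted p = 6.47e-07) in knockout, close to the median of expressed genes in this table. After median-ratio scaling it was -0.28 and -0.42 and no longer called.

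*Clec7a* (Dectin-1) binds fungal beta-glucan and carries an activation motif in its own tail. It was low in RAW264.7, at 2.13, 1.46 and 1.67 FPKM in wild type and 3.84, 3.62 and 3.31 in the labelled knockout with PBS. LPS brought wild type to 4.26, 5.44 and 4.36 FPKM and the labelled knockout to 5.18, 4.46 and 4.18. The genotypes were apart with PBS, where the labelled knockout was higher by 1.01 (SE 0.15, adjusted p = 0.00275, limma), and overlapped with LPS, where the difference was -0.02 (95% interval -0.36 to 0.32). *Clec7a* rose 2.60-fold with LPS in wild type (log2 1.38, SE 0.15, adjusted p = 9.19e-05), against 0.35 (SE 0.15, adjusted p = 0.131) in the labelled knockout, where median-ratio scaling gave 0.59 (adjusted p = 0.0152). The LPS responses differed by -1.03 (SE 0.22, adjusted p = 0.0453), a call lost in 11 of 12 fits with 1 library left out.

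In BMDMs the listed level of *Clec7a* was far higher, in a table normalised separately, and it moved the other way. With PBS it was at 207, 205 and 202 FPKM in wild type, the highest of the 8 receptors there, and 152, 150 and 149 in knockout. With LPS it was at 83.6, 77.8 and 79.9 FPKM in wild type and 54.9, 56.0 and 56.9 in knockout. Every LPS library was below every PBS library and every knockout library was below its wild-type counterparts. LPS lowered it 2.54-fold in wild type (log2 -1.35, SE 0.04, adjusted p = 2.39e-09, limma) and 2.69-fold in knockout (log2 -1.43, SE 0.04, adjusted p = 1.82e-09), and it was still lower after median-ratio scaling (-0.73 and -0.92), although filtered edgeR (-0.57) and DESeq2 (-0.54) put the wild-type fall just under 1.5-fold. Knockout against wild type was -0.44 (SE 0.04, adjusted p = 3.15e-04) with PBS and -0.52 (SE 0.04, adjusted p = 6.11e-05) with LPS. Both are under the 1.5-fold limit, but with LPS it was called after median-ratio scaling (-0.66, where 4.42% of genes were called and 2.35% were lower) and by edgeR (-0.67) and DESeq2 (-0.68).

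**Figure D3:**
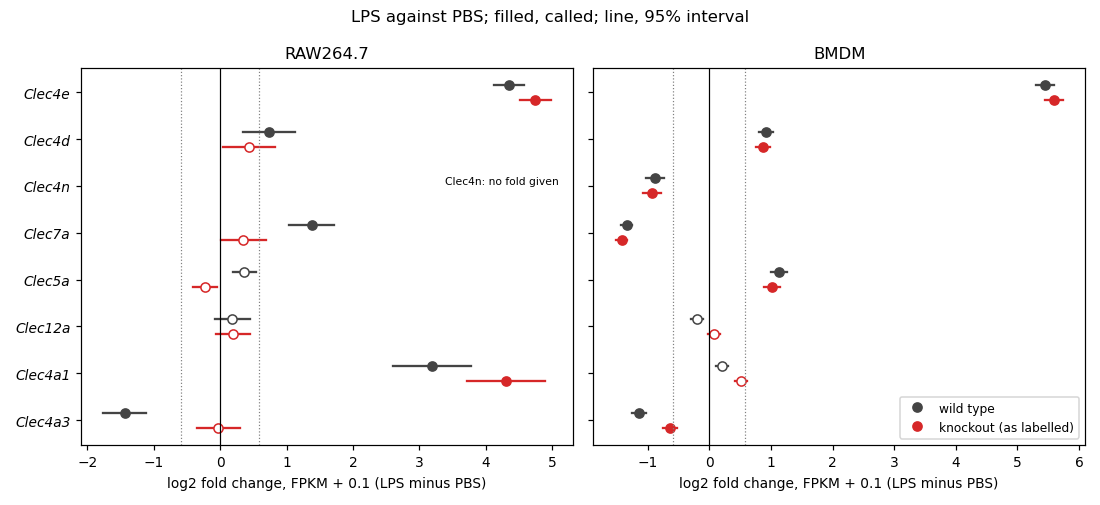
LPS against PBS for each receptor in RAW264.7 (left) and BMDMs (right), as the log2 fold change of FPKM + 0.1 on the x axis. Points are limma estimates, filled where called, lines are 95% intervals, and dotted lines mark 1.5-fold. *Clec4e* lies between 4.35 and 5.59 in all 4 settings, while *Clec7a* is at 1.38 in wild-type RAW264.7 and -1.35 in wild-type BMDMs. The *Clec4a1* point of the labelled knockout rests on 3 counts with PBS.

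*Clec5a* (MDL-1), a receptor for dengue virus, signals through Tyrobp. Wild-type RAW264.7 libraries held 77.7, 78.4 and 73.8 FPKM with PBS and 96.7, 99.4 and 99.6 with LPS. The labelled knockout held 65.0, 58.0 and 67.7 FPKM with PBS and 52.4, 53.9 and 56.1 with LPS. So the 4 groups did not overlap, and LPS libraries were higher than PBS libraries in wild type and lower in the labelled knockout. With LPS the labelled knockout was 1.82-fold lower (log2 -0.86, SE 0.08, adjusted p = 7.81e-05, limma), and with PBS the difference was -0.27 (SE 0.08, adjusted p = 0.0509). Without the replicate that stood apart, the PBS difference was -0.29 (adjusted p = 0.0162, limma), still under 1.5-fold. With same-sum scaling (FPKM rescaled to the same library sum) the differences were -0.08 with PBS and -0.63 with LPS. On that scale the median over genes at 1 FPKM or more was 0.21 and 0.23. The LPS difference was 0.36 (SE 0.08, adjusted p = 0.00633) in wild type, under 1.5-fold, and -0.23 (SE 0.08, adjusted p = 0.0545) in the labelled knockout. These 2 responses differed by -0.59 (SE 0.11, adjusted p = 0.0254), a call lost in 10 of 12 fits with 1 library left out. The sign in the labelled knockout depends on the scale, being 0.02 after median-ratio scaling.

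In BMDMs *Clec5a* was at 14.0, 14.8 and 14.4 FPKM in wild type and 17.1, 18.1 and 19.3 in knockout with PBS. LPS brought it to 32.0, 31.4 and 31.5 FPKM in wild type and 37.6, 37.6 and 35.1 in knockout. It rose 2.19-fold in wild type (log2 1.13, SE 0.06, adjusted p = 5.17e-08, limma) and 2.02-fold in knockout (log2 1.02, SE 0.06, adjusted p = 1.32e-07). All knockout libraries were above their wild-type counterparts, by 0.33 (SE 0.06, adjusted p = 0.00935) with PBS and 0.22 (SE 0.06, adjusted p = 0.0252) with LPS, both under 1.5-fold. The LPS value was 0.08 (adjusted p = 0.441) after median-ratio scaling.

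*Clec12a* (MICL), the inhibitory member that binds uric acid crystals, was called in no genotype, LPS or interaction comparison of either cell type on FPKM as deposited, though median-ratio scaling, edgeR and DESeq2 each called it higher with LPS in knockout BMDMs and DESeq2 did so in wild-type BMDMs as well. In RAW264.7 it was at 27.1, 25.3 and 29.3 FPKM in wild type and 34.7, 25.9 and 26.0 in the labelled knockout with PBS. LPS libraries were at 31.2, 30.6 and 30.8 FPKM in wild type and 32.9, 32.3 and 32.9 in the labelled knockout. The PBS groups overlapped, and no RAW264.7 comparison was called, with log2 fold changes from 0.07 to 0.19 for genotype and LPS. The genotype value with PBS was -0.07 without the replicate that stood apart, which holds the 34.7 FPKM.

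In BMDMs *Clec12a* was at 113, 113 and 111 FPKM in wild type and 94.5, 95 and 94.3 in knockout with PBS. With LPS it was at 101, 97.5 and 94.8 FPKM in wild type and 99.9, 102 and 97 in knockout, where the genotypes overlapped. Knockout was lower with PBS by 1.19-fold (log2 -0.25, SE 0.04, adjusted p = 0.0107, limma), under the 1.5-fold limit. The LPS difference in wild type, -0.20 (SE 0.04, adjusted p = 0.00261), turned to 0.41 after median-ratio scaling, and that in knockout went from 0.07 (SE 0.04, adjusted p = 0.194) to 0.59.

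*Clec4a1* (DCIR4) belongs to the dendritic cell immunoreceptor subfamily. RAW264.7 had almost none with PBS, with 10 counts over the 3 wild-type libraries (0.10, 0.12 and 0.24 FPKM) and 3 over the labelled knockout (0, 0.08 and 0.04). With LPS there were 140 counts in wild type (2.11, 2.27 and 2.05 FPKM) and 152 in the labelled knockout (1.99, 2.73 and 3.14). LPS libraries were above PBS libraries in both genotypes. Per total count the LPS to PBS ratio was 14.2 in wild type (exact 95% interval 7.51 to 30.3, counting error only) and 64 in the labelled knockout (21.5 to 314), both rises being called by limma at adjusted p = 1.18e-05 and 1.11e-06. The genotypes overlapped with LPS, at a difference of 0.26 (95% interval -0.33 to 0.84).

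In BMDMs *Clec4a1* was well expressed, at 54.3, 54.2 and 53.6 FPKM in wild type and 40.5, 38.2 and 40.5 in knockout with PBS. With LPS it was at 62.4, 62.2 and 61.5 FPKM in wild type and 54.7, 56.8 and 57.9 in knockout. Knockout was below wild type in every library of either condition, by 0.44 (SE 0.04, adjusted p = 3.19e-04, limma) with PBS and 0.14 (SE 0.04, adjusted p = 0.0608) with LPS, both under 1.5-fold. LPS gave 0.20 (SE 0.04, adjusted p = 0.00283) in wild type and 0.51 (SE 0.04, adjusted p = 3.41e-06) in knockout, which reached 0.81 and 1.02, and were called, after median-ratio scaling.

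*Clec4a3* (DCIR3) belongs to the same subfamily. In RAW264.7 with PBS it was at 2.43, 3.13 and 3.33 FPKM in wild type and 0.82, 0.80 and 0.63 in the labelled knockout. With LPS it was at 1.06, 1.02 and 0.99 FPKM in wild type and 0.78, 0.80 and 0.62 in the labelled knockout. Wild type with PBS stood above every other library, and the 2 labelled knockout groups overlapped. It was 3.59-fold lower in the labelled knockout with PBS (log2 -1.85, SE 0.14, adjusted p = 4.11e-05, limma) and fell 2.71-fold with LPS in wild type (log2 -1.44, SE 0.14, adjusted p = 4.59e-05). In the labelled knockout LPS gave -0.03 (95% interval -0.35 to 0.29). The responses differed by 1.41 (SE 0.20, adjusted p = 0.00728), on 36 to 168 counts per group.

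In BMDMs *Clec4a3* was at 50.9, 50.2 and 47.4 FPKM in wild type and 37.9, 37.5 and 39.5 in knockout with PBS. LPS libraries held 21.6, 22.4 and 23.3 FPKM in wild type and 25.2, 24.5 and 23.9 in knockout. On FPKM as deposited, knockout libraries were thus below wild type with PBS and above it with LPS. LPS gave -1.14 (SE 0.05, adjusted p = 2.27e-08, limma) in wild type and -0.64 (SE 0.05, adjusted p = 1.88e-06) in knockout, and -0.52 and -0.13 after median-ratio scaling, where neither was called. The knockout value was 0.034 in filtered edgeR and 0.056 in DESeq2. The genotype differences were -0.37 (SE 0.05, adjusted p = 0.00262) with PBS and 0.13 (SE 0.05, adjusted p = 0.119) with LPS. After median-ratio scaling they were -0.40 and -0.0022.

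**Figure D4:**
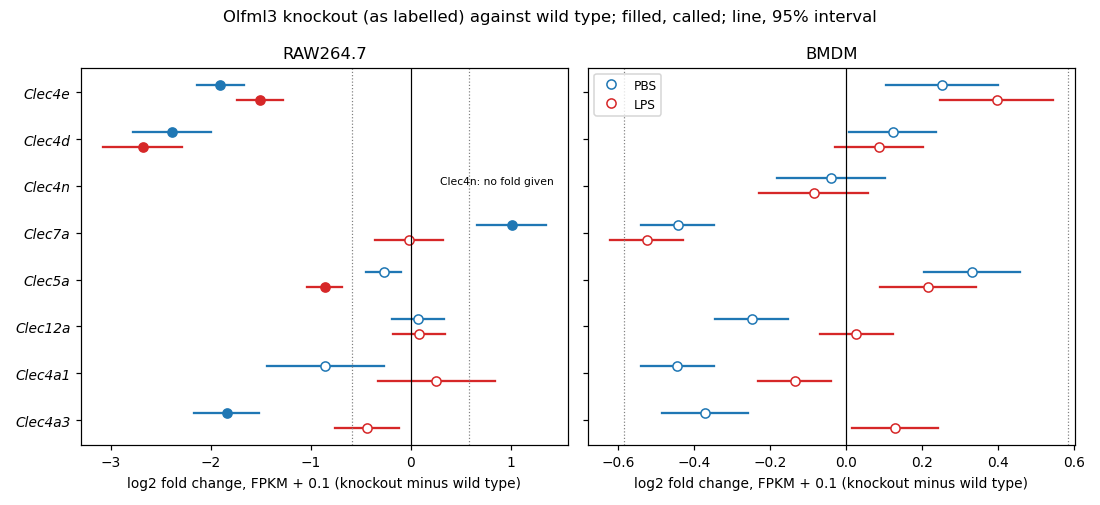
*Olfml3* knockout, as labelled, against wild type for each receptor, with PBS (blue) and LPS (red), in RAW264.7 (left) and BMDMs (right, on a narrower x axis). Points are limma log2 fold changes of FPKM + 0.1, filled where called, lines are 95% intervals, and dotted lines mark 1.5-fold. *Clec4d* is at -2.39 and -2.68 in RAW264.7 and at 0.12 and 0.09 in BMDMs, where no point is filled.

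Whether LPS acted differently by genotype was tested as an interaction. In RAW264.7 it was called for 3 of the 8 receptors by limma, *Clec5a*, *Clec7a* and *Clec4a3*, 1 higher and 2 lower, where 1.95% of genes were called, 0.905% higher and 1.04% lower. The *Clec5a* difference was only just past 1.5-fold and 2 were called after median-ratio scaling, 1 each way, where 1.94% of genes were, 0.95% higher and 0.995% lower. DESeq2 called *Clec7a* alone (2.01% of genes called), with *Clec4a3* at 1.51 (adjusted p = 0.0531). Only *Clec4a3* remained without replicate 1 of the labelled knockout with PBS (3.41% of genes called), where *Clec5a* was at -0.57 (adjusted p = 0.0147, just under 1.5-fold) and *Clec7a* at -0.98 (adjusted p = 0.0502), and leaving out any other single library gave 1 or 2 calls. In BMDMs none was called by limma, edgeR or DESeq2, where 2.93% of genes were called by limma. At an adjusted p under 0.05 alone (6.53% of genes), as at an unadjusted one (18.3%), there were 3: *Clec4a3* (0.50, adjusted p = 0.00345), *Clec4a1* (0.31, adjusted p = 0.0172) and *Clec12a* (0.27, adjusted p = 0.0274). The median over the 11579 genes at 1 FPKM or more in some group was 0.11. After median-ratio scaling only *Clec4a3* passed by limma (0.40, adjusted p = 0.0158). There *Clec4a1* was at 0.21 (adjusted p = 0.102) and *Clec12a* at 0.17 (adjusted p = 0.153).

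Of the 20 signalling genes listed with these receptors, 4 were called in RAW264.7 between labelled knockout and wild type with PBS, 3 higher and 1 lower, and 5 with LPS, 3 higher and 2 lower, where 8.55% and 17.3% of all genes were called. The kinase *Syk* went from 3.60 to 7.34 FPKM with PBS (log2 0.99, adjusted p = 0.00185, limma) and from 4.08 to 8.43 with LPS (log2 1.03, adjusted p = 9.43e-04). The transcription factor gene *Nfatc1* was higher in both (0.88 and 0.65), the inositol phosphatase gene *Inpp5d* with PBS (0.60) and *Malt1* with LPS (1.16). *Cebpb*, which encodes a C/EBP factor, was lower in both, at 23.3 against 47.7 FPKM with PBS (log2 -1.05, adjusted p = 0.00579) and 16.4 against 49.8 with LPS (log2 -1.61, adjusted p = 3.23e-04). *Tyrobp*, the partner of Clec5a, was at 302 against 474 FPKM with LPS (log2 -0.65, adjusted p = 0.0157). *Fcer1g*, the partner of Clec4e, Clec4d and Clec4n, was not called in any comparison, at 138 and 148 FPKM with PBS and 171 and 192 with LPS. *Syk*, *Tyrobp* and *Fcer1g* were singled out after their values were seen.

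In BMDMs 0 of the 20 were called by limma between the genotypes with PBS and 1, *Nfatc1*, with LPS (2.04 against 3.30 FPKM, log2 -0.67, adjusted p = 2.77e-05). With LPS in wild type 7 of the 20 rose and 6 fell in RAW264.7, where 18.3% of all genes were called, 5.8% higher and 12.5% lower. In wild-type BMDMs 6 rose and 4 fell, where 40.4% of all genes were called, 7.94% higher and 32.5% lower. After median-ratio scaling that was 11 and 4, beside 32.1%, 12.5% higher and 19.5% lower. In wild-type RAW264.7 *Src* went from 0.03 to 7.41 FPKM and *Malt1* from 2.63 to 32.1, and the BMDM values were 0.45 to 28.4 and 3.14 to 43.1. *Cebpd* went from 5.27 to 46.4 FPKM and, in BMDMs, from 1.56 to 10.5. *Inpp5d* fell from 20.6 to 6.46 FPKM and, in BMDMs, from 42.9 to 2.43. *Cebpb* was at 47.7 and 49.8 FPKM in RAW264.7 (not called) and rose from 11.7 to 46.6 in BMDMs. In the labelled knockout of RAW264.7 6 rose and 8 fell (22.1% of all genes called, 7.45% higher and 14.6% lower). In knockout BMDMs 8 rose and 6 fell (38.9%, 8.02% higher and 30.9% lower). After median-ratio scaling that was 11 and 3 (30.8%, 11.6% higher and 19.1% lower).

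Of 24 other C-type lectins 22 were tested in each cell type. Genotype called 2 of them in each comparison, where 8.55% and 17.3% of all genes were called in RAW264.7 and 1.82% and 4.76% in BMDMs with PBS and LPS. In RAW264.7 *Clec4a2*, the inhibitory receptor DCIR1, was lower with PBS (0.46 against 1.32 FPKM) and LPS (0.35 against 1.34), *Mrc2* was higher with PBS at under 0.3 FPKM, and the scavenger receptor gene *Colec12* was lower with LPS (8.43 against 14.0 FPKM). In BMDMs *Cd72*, an inhibitory lectin, was lower with PBS (18.7 against 37.1 FPKM) and *Olr1* higher (0.16 against 0.07), while with LPS *Clec4b1* was higher (1.27 against 0.68) and *Clec9a* lower at under 0.2 FPKM. After median-ratio scaling no such lectin was called higher in BMDMs in either genotype comparison, so *Olr1* and *Clec4b1* were not called there. *Clec4a2*, *Mrc2* and *Clec9a* were named after their values were seen. LPS in wild type raised 3 and lowered 3 in RAW264.7 (18.3% of all genes called, 5.8% higher and 12.5% lower). In wild-type BMDMs it raised 3 and lowered 9 (40.4%, 7.94% higher and 32.5% lower). After median-ratio scaling that was 5 and 5 (32.1%, 12.5% higher and 19.5% lower). In the labelled knockout of RAW264.7 2 rose and 4 fell (22.1%, 7.45% higher and 14.6% lower). In knockout BMDMs 3 rose and 8 fell (38.9%, 8.02% higher and 30.9% lower). After median-ratio scaling that was 4 and 4 (30.8%, 11.6% higher and 19.1% lower). *Olr1*, the oxidised LDL receptor gene, went from 0 to 1.38 FPKM in wild-type RAW264.7 and 0.07 to 6.49 in BMDMs. *Clec2d* went from 0.21 to 9.59 FPKM in the line and from 44.0 to 98.4 in BMDMs. *Clec10a*, the galactose-type lectin, was at 0.62 and 0.19 FPKM in RAW264.7 and fell from 6.71 to 1.19 in BMDMs.

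For each receptor the gene with the most similar pattern was sought by Pearson correlation of log2(FPKM + 0.1) over the 24 libraries, centred by cell type, among 10357 genes over 1 FPKM in both cell types. *Clec4e* was closest to *Marcksl1* (r = 0.992), *Clec4d* to *Gnb1* (0.981), *Clec4a1* to *Lilrb4b* (0.987), *Clec5a* to *Cebpb* (0.957), *Clec4a3* to *Tox2* (0.950) and *Clec7a* to *Twf1* (0.925). For *Clec4n* and *Clec12a* the best values were lower, with *Syap1* (0.748) and *Zfp868* (0.749). The *Clec4n* value takes in the 12 RAW264.7 libraries, where it held 0 to 11 counts. Over the 12 BMDM libraries *Clec4n* correlated with the other receptors from -0.991 (*Clec4e*) to 0.958 (*Clec7a*). A closest gene in BMDMs alone was not sought. Among the receptors themselves, *Clec4d* and *Clec4e* correlated at 0.995 over the 12 BMDM libraries and at 0.543 over the 12 RAW264.7 libraries, where the genotype gap of *Clec4d* and the LPS rise of *Clec4e* dominate. The points share libraries, scaling and treatment groups, so these values are a description.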

How the data were processed

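RNA-seq libraries of 8 groups (3 each) were used, grouped by title because the genotype tag contradicts the title in 12 of 24 samples. The authors sequenced poly(A) RNA as paired reads of 150 bases and deposited a table per cell type with raw read counts per gene and FPKM made from them. The submitters' notes name mm10, and aligner and counter were not given in the sources used here.

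FPKM were analysed on the log2(FPKM + 0.1) scale with limma 3.58.1 (R 4.3.3; 1 fit of 4 group means per cell type, no intensity trend), the package, adjusted p (0.05) and fold (1.5) limits being those of the study's methods. Genes with FPKM over 0 in at least 1 library were tested, 26740 in RAW264.7 and 26973 in BMDMs, and all 8 receptors passed. Levels were adjusted for no batch, since the labels name none. Counts were used for edgeR 4.0.16 (quasi-likelihood) and DESeq2 1.42.0 as alternatives. Tested on simulated counts with 200 altered expressed genes, limma found 91.5% of them for RAW264.7 and 92.5% for BMDMs, with 7 and 18 false calls. The simulated counts held no library that stood apart, no LPS shift and the same spread for every gene. These rates therefore cannot be carried over to the real libraries. Other alternatives were pseudocounts of 0.01 and 1, FPKM of at least 1 in 3 libraries, median-ratio and same-sum scaling, a replicate block, leaving out each library in turn and dropping the fold limit. Intervals on counts cover counting error only.

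The receptors and the gene lists were chosen with earlier results of these data known. Named genes are the 8 receptors, per list up to 6 genes over 1 FPKM called in the most comparisons, and for each receptor the gene of most similar pattern. The motifs and RefSeq promoters (Python 3.11.15, pandas 2.3.3) were searched on both strands.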

Additional observations from a re-analysis of the deposited data

Results flagged for a closer look

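In RAW264.7 the response to LPS differed between wild type and labelled knockout for 3 receptors by the limma interaction test. It differed by -0.59 for *Clec5a* (adjusted p = 0.0254), by -1.03 for *Clec7a* (adjusted p = 0.0453) and by 1.41 for *Clec4a3* (adjusted p = 0.00728), all on the log2 scale and with Benjamini-Hochberg adjustment over 26740 genes. The *Clec4a3* libraries hold 10 to 67 counts each. With 1 library left out, the call was lost in 10 of 12 fits for *Clec5a*, in 11 of 12 for *Clec7a* and in 0 of 12 for *Clec4a3*. The *Clec5a* call was also lost with a pseudocount of 0.01 (adjusted p = 0.0916, limma), same-sum scaling (0.08) and the replicate block (0.0784). It fell just under 1.5-fold with a pseudocount of 1 (-0.584), median-ratio scaling (-0.567), filtered edgeR (-0.582) and DESeq2 (-0.567). For *Clec7a* the call was lost with a pseudocount of 0.01 (adjusted p = 0.0869, limma), same-sum scaling (0.056) and the replicate block (0.0784). The *Clec4a3* call was lost in DESeq2 (adjusted p = 0.0531) and unfiltered edgeR (0.145).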

How the results depend on the processing

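Under the alternatives tried, the number of receptors called stayed within 1.5 times the reported count for genotype in RAW264.7 (4 with PBS and 3 with LPS), for LPS in wild-type RAW264.7 (5) and for LPS in BMDMs (6 and 6). The receptors behind the BMDM counts changed, however. In wild type filtered edgeR called 4, all higher. *Clec4a1* was added, while *Clec4n* (-0.12), *Clec7a* (-0.57) and *Clec4a3* (-0.37) were not called. In knockout its 6 held *Clec12a* and *Clec4a1* in place of *Clec4n* and *Clec4a3*. The share of all genes that filtered edgeR called with LPS in BMDMs is not given here. For LPS in the labelled knockout of RAW264.7 the number of receptors called was 2 as reported. It was 4 with median-ratio scaling, filtered edgeR and DESeq2, where *Clec4d* and *Clec7a* lie close to the 1.5-fold limit. Unfiltered edgeR also gave 4 (5573 of 26787 genes called), where *Clec4d* and *Clec4n* (0 against 6 counts) were added. The interaction in RAW264.7 called 3 as reported, where 521 of 26740 genes were called. It called 1 with a pseudocount of 0.01 (353 of 26740 genes), same-sum scaling (437), the replicate block (367) and DESeq2 (539 of 26787). Leaving out any 1 library gave between 1 and 2. In BMDMs the adjusted p alone gave 5 in place of 0 for genotype with PBS, 3 for genotype with LPS and 3 for the interaction. For genotype with LPS *Clec7a* made 1 under median-ratio scaling, DESeq2, filtered edgeR and unfiltered edgeR (1318 of 27049 genes called). The cause of these changes was not tested, apart from the dropped fold limit.

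Signs turned for log2 differences near 0, for *Clec4a3* with LPS in knockout BMDMs, which was called at -0.64 as reported and was 0.034 in filtered edgeR and 0.056 in DESeq2, and for *Clec12a* with LPS in wild-type BMDMs, which was -0.20 as reported, 0.41 with median-ratio scaling, 0.57 and 0.51 with edgeR (filtered and not) and 0.60 with DESeq2. For genotype with LPS in RAW264.7, *Clec7a* was 0.0010 with median-ratio scaling, 0.21 with same-sum scaling and -0.11 to 0.088 with 1 library left out. For LPS in the labelled knockout, median-ratio scaling, filtered edgeR and DESeq2 gave *Clec5a* 0.017, 0.0056 and 0.036 and *Clec4a3* 0.19, 0.19 and 0.22, with 0.17 for *Clec4a3* in unfiltered edgeR and -0.13 to 0.074 with 1 library left out. *Clec12a* ran from -0.070 to 0.14 for genotype with PBS in RAW264.7 when 1 library was left out, and its interaction was -0.0036 in unfiltered edgeR and -0.060 to 0.15 with 1 library left out. For genotype with LPS in BMDMs, median-ratio scaling, filtered edgeR, unfiltered edgeR and DESeq2 gave *Clec4d* -0.045, -0.057, -0.050 and -0.069, *Clec12a* -0.11, -0.12, -0.11 and -0.13, and *Clec4a3* -0.0022, -0.012, -0.0053 and -0.025. The *Clec4n* interaction in BMDMs ran from -0.095 to 0.0030 with 1 library left out.

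Replicate numbers are shared across groups, but same-numbered libraries did not deviate together (mean correlation of deviations 0.0146 in RAW264.7 and 0.0186 in BMDMs, 0 of 18 pairs over 0.1 in each). With the replicate block, *Clec5a* and *Clec7a* lost their interaction call in RAW264.7 (adjusted p = 0.0784 for each) and *Clec4a1* gained a call for genotype with PBS (adjusted p = 0.046). Depth limits *Clec4n*, *Clec4a1* and *Clec4a3* in RAW264.7, where some groups hold 0 to 57 counts.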
